A study of Mus musculus with 7 samples.

Results

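The genes described here are 8 genes tied to interneurons that contain cholecystokinin (CCK): the peptide precursor genes Cck and Tac2, the receptor genes Cnr1, Cckar and Cckbr, the transporter gene Slc17a8, the synuclein gene Sncg and the chemokine gene Cxcl14. They were taken by symbol from the table of each cell, 8 of 21414 genes named in all 7 tables. They had been chosen by their TPM in these same tables, as genes high in the same pair of cells, so their levels across the cells are a description and carry no test. The cells were 7 neurons with long-range axons, drawn 1 by 1 into a patch pipette from acute hippocampal slices of VIP-eGFP mice, in which a transgene under control of the Vip gene makes enhanced green fluorescent protein. All lay in stratum oriens/alveus of CA1, received no treatment and were kept when their axon ran to the subiculum. The labels give 1 group and tie no cell to an animal, and give no age or sex, so the 7 cells counted as 1 sample and no p-value was computed.

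CCK interneurons are inhibitory cells of the hippocampus and cortex, known above all as basket cells that contact the cell bodies of pyramidal neurons. Their terminals carry the cannabinoid receptor CB1, through which endocannabinoids released by the target cell reduce the release of GABA. Some of these cells also contain vasoactive intestinal polypeptide (VIP) or the vesicular glutamate transporter VGLUT3. Cck and Cnr1 are also transcribed in pyramidal neurons, at least at low levels.

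Libraries held 1052327 to 3398521 estimated counts, and cells 2 and 7 were the deepest. These 2 cells differed in the genes detected: cell 2 had the most above 1 TPM (8174) and cell 7 the fewest (3095). TPM (transcripts per 1000000) was the deposited level, which corrects for transcript length. The table of cell 7 listed Ensembl transcripts and the others RefSeq transcripts, and the 20380 protein-coding genes named in all tables held between 12.7% (cell 6) and 70.4% (cell 7) of all TPM. Levels in different cells were therefore also given after rescaling to these protein-coding genes, as ranks within a cell, or as ratios between genes of 1 cell. Vip, the gene that gives the cells their label, had 25.3 to 5006 TPM in the 7 cells. Gad1, an enzyme gene of GABA synthesis, had 9.59 to 490 TPM, while Slc32a1, the gene of the vesicular GABA transporter, had no count in cells 6 and 7.

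The label of the gene set held for 3 of its 8 members. Cck, Tac2 and Cnr1 each had their highest and second-highest levels in cells 2 and 7. Sncg was highest in cells 7 and 6, and Cxcl14 in cells 1 and 7. For Slc17a8, Cckar and Cckbr, no cell exceeded 1 TPM. The stretches before the start sites of the 3 genes that shared the pair of cells are printed next, because these genes shared their highest cells. They are from RefSeq on GRCm38.p6, the mouse build that mm10 stands for, and read 5′ to 3′ on the gene's strand. Capitals mark matches to a cyclic AMP response element or its variant, an E-box or a TATA box.
Cck, chr9:121495695-121495944, minus strand: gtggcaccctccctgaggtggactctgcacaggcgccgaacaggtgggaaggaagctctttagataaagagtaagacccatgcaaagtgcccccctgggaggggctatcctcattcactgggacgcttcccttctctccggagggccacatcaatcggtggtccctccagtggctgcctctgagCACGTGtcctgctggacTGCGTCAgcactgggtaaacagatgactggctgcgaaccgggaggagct
Tac2, chr10:127724228-127724477, plus strand: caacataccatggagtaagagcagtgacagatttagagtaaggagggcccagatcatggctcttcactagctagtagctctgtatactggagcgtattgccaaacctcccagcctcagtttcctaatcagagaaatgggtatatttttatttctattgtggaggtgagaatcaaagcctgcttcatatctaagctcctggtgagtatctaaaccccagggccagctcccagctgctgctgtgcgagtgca
Cnr1, chr4:33924394-33924592, plus strand: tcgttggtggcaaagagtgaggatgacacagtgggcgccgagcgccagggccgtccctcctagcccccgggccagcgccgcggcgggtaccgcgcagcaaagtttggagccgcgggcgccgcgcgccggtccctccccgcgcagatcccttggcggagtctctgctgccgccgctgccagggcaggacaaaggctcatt

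The motifs were searched on both strands in the 250 bases before each of 32851 start sites, of which 10 belonged to 7 of the members, all but Cckar. They were chosen after the letters had been seen. Cck held the E-box CACGTG, found before 6.02% of all start sites, and the variant response element TGCGTCA, found before 1.75%. The E-box starts 66 bases and the variant element 49 bases before the end of the printed run, and they do not overlap. The full element TGACGTCA (1.55% of start sites) was found before no member, nor were TATAAA (12.4%) or TATTTAA (4.18%). The Tac2 and Cnr1 stretches printed here held none of the 5, and another start site of Cnr1 and the one of Cckbr held CACGTG. GC content was 60.0% in the Cck stretch, 47.2% in that of Tac2 and 71.9% in that of Cnr1, which is 199 bases long because it stops before the first annotated exon.

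Cck encodes the precursor of the peptide cholecystokinin. It stood at 8825 TPM in cell 2 and 6152 in cell 7. Cells 3 and 5 had 40.9 and 44.2 TPM, cell 6 had 2.54 TPM, and cells 1 and 4 were listed at 0. Cells 2 and 7 thus stood far above the rest, and the second-highest cell was 139 times the third. Within cell 2, Cck had the highest TPM of all shared protein-coding genes (rank 1), and in cell 7 it had rank 7. Cells 3, 5 and 6 had ranks of 1193, 1959 and 2786 for Cck. The lead in cells 2 and 7 was therefore visible without comparing TPM between tables.

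The estimated counts behind these levels were 10994 in cell 2 and 10260 in cell 7, against 61, 62 and 5 in cells 3, 5 and 6. The exact 95% Poisson interval of the 5 counts is 1.62 to 11.7, an interval for counting error alone, because PCR copies of a read are not separate molecules. In cells 1 and 4, 3 counts would give 2.78 and 3.03 TPM, above the TPM of cell 6 and far below that of cells 3 and 5. That comparison holds for TPM alone, which is not on 1 scale across cells. Floors on rescaled values were not computed, so whether a level like that of cell 6 could be detected in cells 1 and 4 is not settled. Rescaled over the shared protein-coding genes, Cck reached 15356 in cell 2 and 8744 in cell 7, whereas cells 3, 5 and 6 had 162, 134 and 19.9. On that scale the second-highest cell was 54.0 times the third. Cck lies on chromosome 9 (121489824 to 121495694, minus strand) on mm10.

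Tac2 encodes the precursor of neurokinin B, a tachykinin. It stood at 4780.4 TPM in cell 7 and 2700.2 in cell 2, from 8576 and 3294 estimated counts. It stood at 0.681 TPM in cell 3, on 1 count, and had no count in cells 1, 4, 5 and 6, in which 3 counts correspond to 1.34 to 2.85 TPM. Tac2 was thus all but confined to 2 cells, the other 5 having at most 1 count. Tac2 had rank 8 among the protein-coding genes of cell 2 and rank 11 in cell 7. Cck was above Tac2 in both of these cells, with 0.306 TPM of Tac2 per TPM of Cck in cell 2 and 0.777 in cell 7. Cells 3, 5 and 6 had Cck counts with little or no Tac2. Tac2 lies on chromosome 10 (127724478 to 127731768, plus strand).

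The other genes of the tachykinin family did not share this pattern. Tac1, the precursor gene of substance P and neurokinin A, stood at 21.1 TPM in cell 6 and 9.22 in cell 7 and at 0 elsewhere. Of the receptor genes, Tacr3, whose product binds neurokinin B, stood at 1.57 TPM in cell 6, and Tacr2 stood at 1.31 in cell 5. Neither Tacr1 nor Tac4 exceeded 1 TPM anywhere. Of the 5 genes of this list, 2 were above 1 TPM in no cell, beside 44.9% of all shared protein-coding genes. Only 1, Tac1, was above 1 TPM in at least 2 cells, and its highest pair was not cells 2 and 7. Among all genes above 1 TPM in at least 2 cells, 7.94% had that pair, so nothing is read from this count.

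Cnr1 encodes the cannabinoid receptor CB1. It stood at 1077 TPM in cell 2 and 638 in cell 7. Cells 1 and 5 had 74.5 and 52.5 TPM, cells 3 and 4 had 34.4 and 26.0 TPM, and cell 6 had 0.441 TPM. Unlike Cck and Tac2, Cnr1 had counts in every cell, with 225 to 715 estimated counts in cells 1, 3, 4 and 5 and 8 in cell 6. The exact 95% Poisson interval of the 8 counts is 3.45 to 15.8. Cells 1 and 4, which had no Cck count, had 703 and 225 Cnr1 counts. Cnr1 had rank 33 among protein-coding genes in cell 2 and rank 243 in cell 7, against rank 840 in cell 1 and 4094 in cell 6.

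The second-highest cell was 8.56 times the third for Cnr1, a far smaller gap than for Cck. Rescaled over the shared protein-coding genes, the gap was 4.33 times. Cells 2 and 7 then had 1874 and 906, cells 1, 5 and 3 had 209, 159 and 136, and cells 4 and 6 had 82.7 and 3.46. The order of the cells was the same on both scales. Cnr1 lies on chromosome 4 (33924593 to 33948831, plus strand).

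**Figure D1:**
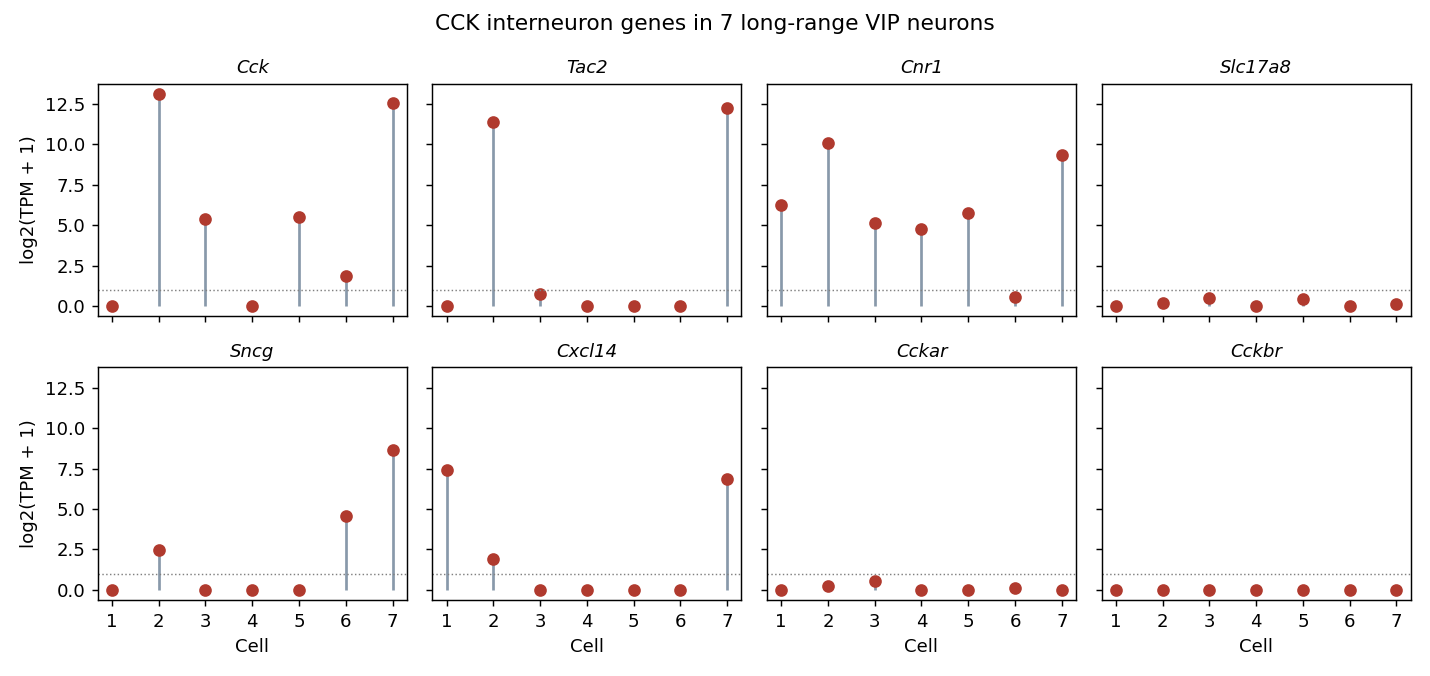
Level of each of the 8 genes in each of the 7 cells, as log2(TPM + 1); each point is 1 cell and the dotted line marks 1 TPM. Cck, Tac2 and Cnr1 are highest in cells 2 and 7, Sncg in cells 7 and 6 and Cxcl14 in cells 1 and 7, and the other 3 genes stay below the line.

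Vip itself was highest in cells 7 and 2, at 5006 and 4299.6 TPM, so the members were also set against it within each cell. There were 2.05 TPM of Cck per TPM of Vip in cell 2 and 1.23 in cell 7. The ratio was 0.127 in cell 3, 0.0766 in cell 5 and 0.00795 in cell 6, and 0 in cells 1 and 4. For Cck, cells 2 and 7 thus kept their lead after division by Vip. For Tac2 the ratio to Vip was 0.955 in cell 7, 0.628 in cell 2 and at most 0.00211 elsewhere.

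Cnr1 behaved otherwise on this measure. There was 1.03 TPM of Cnr1 per TPM of Vip in cell 4, where Vip was lowest, against 0.251 and 0.127 in cells 2 and 7. Cells 1, 3 and 5 had ratios of 0.110, 0.107 and 0.0908, and cell 6 one of 0.00138. Per TPM of Snap25, a vesicle fusion gene of neurons in general, Cnr1 had 2.19 TPM in cell 2, 0.755 in cell 7, and 0.310 or less in the remaining cells. Per TPM of Gad1, Cnr1 had 4.69 TPM in cell 7, 2.67 in cell 2, and 0.793 or less in the remaining cells. Cells 2 and 7 therefore led for Cnr1 against Snap25 and Gad1. Against Vip, cell 4 stood above them, on a Vip level of 25.3 TPM from 59 counts, and cell 7 (0.127) was close to cell 1 (0.110).

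The transcripts listed for a gene add a view that the sum per symbol hides. Of the 19 values above 1 TPM among the 56 combinations of member and cell, 15 had over 99% of their TPM on 1 transcript. The other 4 were Cck in cell 2 and Cnr1 in cells 2, 3 and 5. In cell 2, 94.1% of Cck TPM lay on the transcript of 707 bases and 5.83% on one of 746 bases. In cells 3, 5 and 6 all Cck counts lay on the 707-base transcript. The table of cell 7 lists a single Cck transcript, of 685 bases, so no split can be seen there.

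Cnr1 was divided further. The transcript of 5301 bases held 100% of Cnr1 TPM in cells 1, 4 and 6 and 72.6%, 60.1% and 58.3% in cells 3, 5 and 2. The transcript of 5807 bases held 33.1% in cell 2 and 39.9% in cell 5, and one of 7758 bases held 27.4% in cell 3. In cell 7 the 5807-base transcript held 100% of Cnr1 TPM, but the 3 Ensembl transcripts listed there do not include one of 5301 bases. The cell and the set of listed transcripts cannot be told apart in that difference. Counted by the highest transcript alone, Cnr1 was marginally higher in cell 7 (638 TPM) than in cell 2 (628 TPM).

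**Figure D2:**
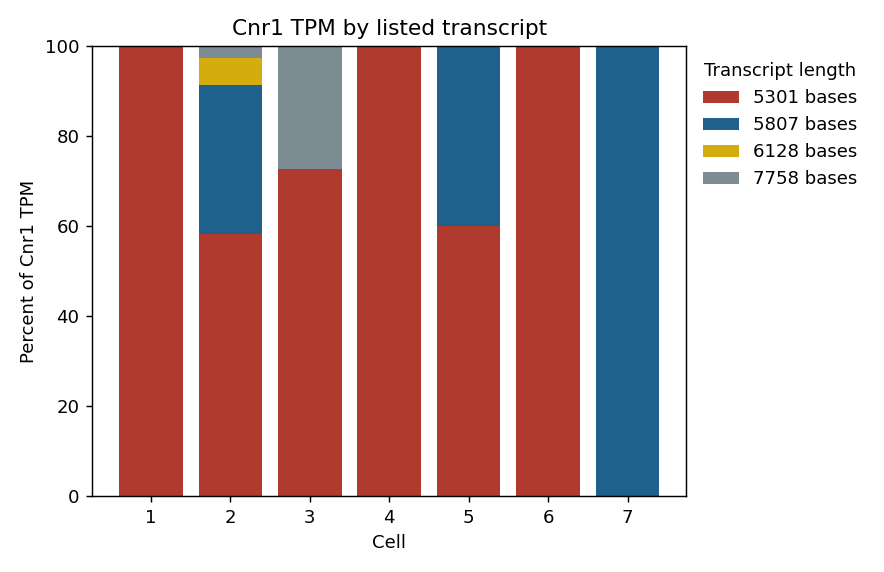
Share of Cnr1 TPM, in percent, on each listed transcript in each of the 7 cells; colours give the transcript's length in bases. The 5301-base transcript leads in cells 1 to 6, at 58.3% to 100%, and the 5807-base transcript holds all of the level in cell 7, whose table lists no 5301-base transcript.

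Sncg encodes gamma-synuclein and names a class of CCK interneurons in cortical cell atlases. Cell 7 had 402 TPM (898 estimated counts), cell 6 had 22.3 TPM (48 counts) and cell 2 had 4.43 TPM (6 counts), while cells 1, 3, 4 and 5 were listed at 0. Cell 2, the highest in Cck, thus held few Sncg counts, with an exact 95% Poisson interval of 2.20 to 13.1. Cell 6, the lowest in Cnr1, held more. Rescaled over the shared protein-coding genes, cells 7, 6 and 2 had 572, 175 and 7.71 for Sncg. In the 4 cells at 0, 3 counts would give 1.85 to 2.98 TPM.

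The related gene Sncb, beta-synuclein, was found in every cell. It ran from 47.6 TPM in cell 3 to 195 in cell 1, and cells 2 and 7 were not its highest pair. Sncg lies on chromosome 14 (34370274 to 34374789, minus strand).

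Cxcl14 encodes a secreted chemokine that marks caudal interneurons of the hippocampus. Cell 1 had 169 TPM (513 estimated counts), cell 7 had 113 TPM (565 counts) and cell 2 had 2.66 TPM (10 counts), while cells 3 to 6 were listed at 0. The second-highest cell was thus 42.3 times the third. Rescaled over the shared protein-coding genes, Cxcl14 had 474 in cell 1, 160 in cell 7 and 4.62 in cell 2, so the order held and the distance between cells 1 and 7 was wider. Cell 1 had no count of Cck, Tac2 or Sncg, so its Cxcl14 stood apart from those genes. The chemokine gene Cxcl12 and the chemokine receptor genes Cxcr4 and Ackr3 were above 1 TPM in 0 of 7 cells. So were 44.9% of all shared protein-coding genes. Cxcl14 lies on chromosome 13 (56288643 to 56296551, minus strand).

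Slc17a8 encodes VGLUT3. Its highest level was 0.409 TPM in cell 3, on 4.05 estimated counts, followed by 0.333 in cell 5, 0.132 in cell 2 and 0.0705 in cell 7. Cells 1, 4 and 6 had none. Cells 2 and 7 had about 1 count each, in the deepest libraries, where 3 counts would give 0.330 and 0.304 TPM. Of the related transporter genes, Slc17a7 (VGLUT1) stood at 52.2 TPM in cell 2 and 7.38 in cell 7 and at most 0.131 TPM elsewhere. Slc17a6 (VGLUT2) had 67.2 TPM in cell 1, and no other cell exceeded 1 TPM. Slc17a8 lies on chromosome 10 (89574020 to 89621253, minus strand).

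The receptors for cholecystokinin were the least detected members. Cckar, which encodes the CCK1 receptor, stood at 0.477 TPM in cell 3 on 3.40 estimated counts, at 0.165 in cell 2 and 0.0572 in cell 6, and at 0 elsewhere. Cckbr, which encodes the CCK2 receptor, had no count in any of the 7 cells, where 3 counts would give 0.349 to 0.734 TPM. At this depth a level below those floors could not be detected. Cckar lies on chromosome 5 (53697776 to 53707705, minus strand) and Cckbr on chromosome 7 (105425731 to 105470898, plus strand). In GENCODE M21, no exon of another gene lies within any of the 8 loci.

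Counted by cell, 5 members were above 1 TPM in each of cells 2 and 7, 2 in each of cells 1, 3, 5 and 6, and 1 in cell 4. Of all 21414 genes, 8174 were above 1 TPM in cell 2, 3095 in cell 7 and 3124 to 6889 in the others. The members above 1 TPM were Cck, Tac2, Cnr1, Sncg and Cxcl14 in both cells 2 and 7. Their companions in cell 1 were Cnr1 and Cxcl14, in cells 3 and 5 Cck and Cnr1, in cell 6 Cck and Sncg, and in cell 4 Cnr1. The 8 genes took 2.19% of the shared protein-coding TPM in cell 2 and 1.72% in cell 7, and 0.00827% to 0.0683% in the other 5. The mean log2(TPM + 1) of the 8 genes was 6.21 in cell 7 and 4.91 in cell 2, and 0.59 to 1.71 in the others. Cell 7 was thus above cell 2 on the mean of logs, which gives Sncg and Cxcl14 equal weight, and cell 2 was above cell 7 in summed TPM (12610.2 and 12085).

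These counts can be read against all genes. Of 5 members above 1 TPM in at least 2 cells, 3 had cells 2 and 7 as their highest pair, as did 655 of 8249 shared protein-coding genes (7.94%). The second-highest cell stood at least 8 times the third, on TPM + 1, for those 3 members and for 83 genes in all (1.01%). On the rescaled values the same pair led for 3.89% of genes and with an 8-fold gap for 0.736%, among them 2 of the members, Cck and Tac2. Since the members had been chosen for this pattern, nothing is read from these shares. Of the 8 members, 3 were above 1 TPM in no cell, and so were 44.9% of all shared protein-coding genes.

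**Figure D3:**
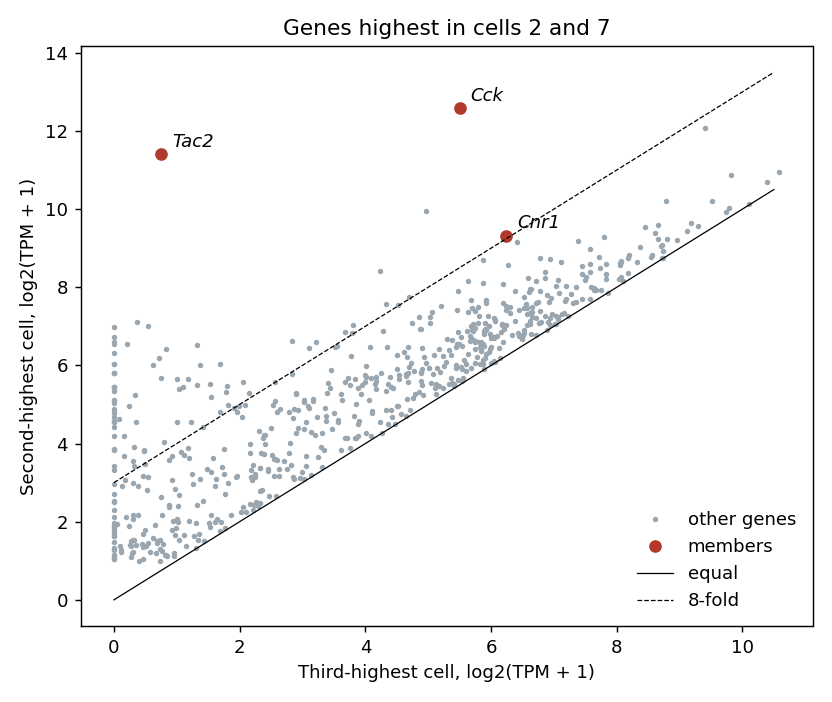
Second-highest against third-highest level, both as log2(TPM + 1), for the 655 protein-coding genes whose highest cells were 2 and 7; each point is 1 gene, with the 3 members in red, and the dashed line marks an 8-fold gap. Cck and Tac2 lie above the other points at their place on the axis, and Cnr1 lies close to the dashed line.

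Within the 83 genes with an 8-fold gap, Cck and Tac2 were the 2 whose second-highest cell was above 1000 TPM. Next in that order was Serpini1, which encodes the protease inhibitor neuroserpin, with 1350.0 TPM (cell 2), 992 TPM (cell 7) and, third-highest, 30.1 TPM (cell 1). The serotonin-gated channel gene Htr3a had 502 and 215 TPM in this pair, followed by 24.9 TPM in cell 4. On rescaled values Htr3a had 873 in cell 2, 305 in cell 7 and 79.0 in cell 4, a gap below 8-fold. Other genes with an 8-fold gap on TPM were Kcnn2, Sstr2 and Cntnap4. Kcnn2, a calcium-activated potassium channel gene, had 107 TPM in cell 2 and 93.2 in cell 7. Sstr2, a somatostatin receptor gene, had 92.1 and 433 TPM in the same cells, and Cntnap4, a cell adhesion gene of interneurons, 181 and 64.8 TPM. Kcnn2 stood at or below 0.150 TPM in the other 5 cells, and Sstr2 and Cntnap4 were listed at 0 there. These examples other than Htr3a were chosen after their values were seen.

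Likeness to Cck was measured as Pearson's r of log2(TPM + 1) over the 7 cells, using the 2148 genes whose mean on that scale was 3 or more. Of these genes, 37 (1.72%) reached an r of 0.9. Tac2 was among them, with r = 0.92, while Cnr1 had 0.77. Outside that filter, r was 0.58 for Sncg and 0.20 for Cxcl14, and leaving out 1 cell moved it between 0.21 and 0.73 for Sncg and between -0.21 and 0.74 for Cxcl14. Over the 5 cells other than 2 and 7, r with Cck was 0.58 for Tac2, which rests there on 1 count in cell 3, 0.13 for Cnr1, -0.15 for Sncg and -0.52 for Cxcl14. For Tac2, Cnr1 and Sncg the likeness to Cck thus depended on cells 2 and 7. All such values share the libraries and their depth and describe 7 cells.

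The 10 genes most like Cck were Rbms3 (r = 0.97), Col25a1, Smim14, Trim35, Elmo1, Fdps, Wasf1, Asap1, Aak1 and Esd (0.94). Rbms3, which encodes an RNA-binding protein, reached 225 TPM in cell 7 and 121 TPM in cell 2, whereas cells 5 and 3 had 28.7 and 12.4 TPM and no remaining cell exceeded 3.63 TPM. Col25a1, a membrane collagen gene, stood at 246 TPM in cell 2 and 134 in cell 7, and Fdps, an enzyme gene of isoprenoid synthesis, at 243 and 120 TPM in the same cells. Like Cck, these genes were higher in cells 3 and 5 than in cells 1, 4 and 6. That order follows largely from their choice by r with Cck over the same cells, so nothing is read from it. All 10 were below 1000 TPM in each of the 7 cells. The membership of this list depended on each single cell, since leaving out 1 cell kept between 1 and 7 of the 10.

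Other genes of caudal interneurons shared the pair of cells in part. Of 16 such genes, 10 were above 1 TPM in at least 2 cells, and 4 of these (Vip, Htr3a, Adarb2 and Igf1) had cells 2 and 7 as their highest, on TPM and on rescaled values alike, beside 7.94% and 3.89% of all genes. Igf1, a growth factor gene, stood at 55.0 TPM in cell 2 and 23.9 in cell 7. Krt73 and Tnfaip8l3, which mark subsets of VIP or CCK interneurons, were at 387 and 93.9 TPM in cell 2 and at 0 in cell 7. Npas1, a transcription factor gene, was highest in cell 2 (251 TPM), with cell 4 (190 TPM) above cell 7 (157 TPM), and on rescaled values cell 4 (605) stood above cell 2 (437). Cells 2 and 7 thus differed from each other in several genes of this class while sharing high Cck, Tac2, Vip and Htr3a. They also differed in 8 genes of interneurons from the medial ganglionic eminence. These summed to 1111 TPM in cell 7 and 0.141 in cell 2, against 20.8 to 1176 TPM in the others (rescaled, 1579 and 0.246, against 82.3 to 3346). Npy stood at 609 TPM and Sst at 501 in cell 7, and both were at 0 in cell 2.

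Genes for making peptides were followed because precursors such as those of Cck and Tac2 are cut, amidated and, for cholecystokinin, sulfated before release. Of 14 genes, 13 were above 1 TPM in at least 2 cells, and 2 of these, Scg5 and Chga, had cells 2 and 7 as their highest pair, beside 7.94% of all genes. On rescaled values Chga kept the pair and Scg5 lost it, with 2181 in cell 2 and 1388 in cell 7 against 2405 in cell 1. Chga, chromogranin A, stood at 565 TPM in cell 2 and 420 in cell 7. Pam, the amidating enzyme, stood at 90.7 TPM in cell 2 and 2.75 in cell 7. Tpst1 and Tpst2, the tyrosine sulfation enzymes, were at 46.8 and 0 TPM in cell 2 and both at 0 in cell 7. Cpe, a carboxypeptidase, stood at 425 TPM in cell 2 and 1614 in cell 7, with its highest level in cell 1 (2449 TPM). The 14 genes thus had no common order of cells.

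Genes of endocannabinoid turnover, which act beside CB1, also differed between cells 2 and 7. Of 11 genes, 6 were above 1 TPM in at least 2 cells, and Mgll had cells 2 and 7 as its highest pair, 1 of 6 beside 7.94% of all genes. Mgll, the lipase that breaks down 2-arachidonoylglycerol, stood at 537 TPM in cell 7 and 53.3 in cell 2, against 22.2 in cell 6, 15.8 in cell 3 and 12.1 in cell 5. That pair was lost on rescaled values, on which Mgll had 763 in cell 7, 92.8 in cell 2 and 175 in cell 6. Dagla, which makes that lipid, had 5.90 TPM in cell 2, and no other cell exceeded 1 TPM. Cnrip1, whose product binds the receptor, reached 65.2 TPM in cell 2 but 0.823 TPM in cell 7, below cell 5 with 45.0 TPM, and on rescaled values cell 5 (137) stood above cell 2 (113). Abhd12, another lipase gene, stood at 341 TPM in cell 2 and 0.266 in cell 7 (rescaled, 593 and 0.378).

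Markers of other cells moved with these levels in places. Counts of such markers above 1 TPM are to be read beside all 21414 genes. Of these, 8174 were above 1 TPM in cell 2, 3095 in cell 7 and 3124 to 6889 in the others. The pyramidal neuron list (10 genes) had 5 genes above 1 TPM in cell 2 and 3 in cell 7, with summed levels of 208 and 471 TPM, against 2 or 3 genes and 13.5 to 117 TPM in the other 5 cells. On rescaled values the pyramidal sum was 669 in cell 7 and 362 in cell 2, against 465 in cell 3, 371 in cell 6 and 42.9 to 235 in cells 4, 5 and 1, so cell 2 no longer stood above the rest. Slc17a7 was highest in cells 2 and 7 on both scales, and Nrgn on TPM alone (rescaled, 651 in cell 7, 207 in cell 2 and 360 in cell 3), whereas Neurod1, Tbr1, Emx1 and Fibcd1 exceeded 1 TPM nowhere. The GABAergic core list stood at 952 TPM in cell 2 and 156 in cell 7, and 133 to 622 TPM in the others. On rescaled values its sum was lowest in cell 7 (222), against 1657 in cell 2 and 1046 to 1748 in the others. Of 9 oligodendrocyte genes, 6 were above 1 TPM in cell 7, with 20793 TPM in sum, against 4 and 174 in cell 2 and 3 to 5 and 113 to 1288 TPM in the others. Red blood cell genes summed to 10493 TPM in cell 2, 426 in cell 7 and 104 to 3388 TPM elsewhere. Of 9 astrocyte genes, 5 were above 1 TPM in cell 7 and 3 in cell 2, with 2753 and 235 TPM in sum, against 29.8 to 1154 TPM in the others. On rescaled values the sum was 3913 in cell 7 and 408 in cell 2, against 3240 in cell 1. Aldoc (2150 TPM) made up most of the sum in cell 7, where S100b stood at 513 TPM and Sox9 at 84.4. Gfap and Aqp4 exceeded 1 TPM nowhere. Of 9 microglia genes, 5 were above 1 TPM in each of cells 2 and 7, with 273 and 2455 TPM in sum, against 1.55 to 1550.0 TPM in the others, and on rescaled values cell 3 (6143) stood above cell 7 (3489). The part of pyramidal, glial or blood RNA, or of depth, in the levels of Cck, Tac2 and Cnr1 was not tested.

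**Figure D4:**
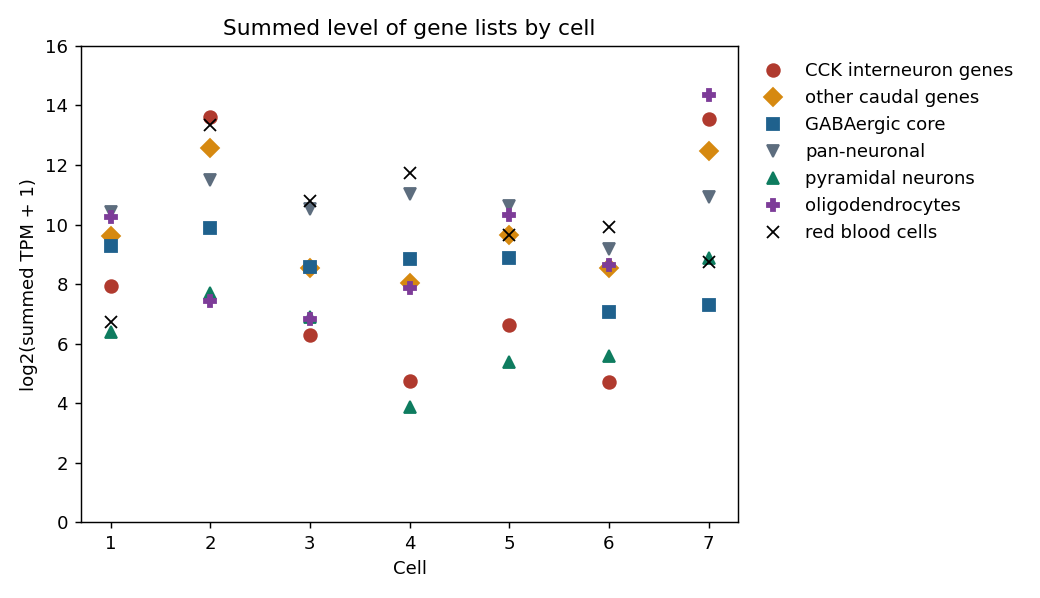
Summed level of 7 gene lists in each of the 7 cells, as log2(summed TPM + 1); each symbol is 1 list. The CCK interneuron genes reach 12610.2 TPM in cell 2 and 12085 TPM in cell 7. The other caudal, GABAergic core, pan-neuronal and red blood cell sums also peak in cell 2 on TPM, and the oligodendrocyte and pyramidal sums in cell 7. On rescaled values, not drawn, the pan-neuronal sum is highest in cell 4 (6596, against 5027 in cell 2 and 2779 in cell 7). The GABAergic core sum is then highest in cell 1 (1748, against 1657 in cell 2).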

How the data were processed

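Per the labels' protocols, RNA of single aspirated neurons was copied with SMART-Seq v4 (17 PCR cycles), a method for whole transcripts with neither strand nor molecular identifiers, and sequenced from both ends after Nextera XT preparation. Per the file headers, the authors gave each transcript a TPM value and an estimated count. Tools named in the submitters' processing notes are kallisto and STAR 2.5.2a, with the build mm10; the sources used here do not give their settings. Both values were summed per symbol. Symbols turned into dates or missing were looked up by accession, which repaired 122 of 157 in cells 1 to 6 and 81 of 1210 in cell 7. Rows still unnamed held at most 0.482% of TPM and were left out. Levels were logged as log2(TPM + 1), which understates differences between low values, and detection was above 1 TPM. A floor is the TPM of 3 counts at the median effective length of the gene's transcripts. Fits were not made, and p-values were not computed, because 7 cells of 1 group with no named animal are 1 sample. Python 3.11.15, numpy 2.4.6, pandas 2.3.3 and scipy 1.17.1 were used, and the search for genes like Cck was tested on simulated data.

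The members, gene lists and alternatives were chosen with earlier results of these data known. Named genes were the 8 members, up to 4 leading genes of each list and the 10 genes most like Cck; other names, such as Pam, Tpst1 and Krt73, were chosen after their values were seen. Alternatives were other scales, thresholds, pseudocounts and filters, the highest transcript, and leaving out cells. Gene positions are from GENCODE M21.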

Additional observations from a re-analysis of the deposited data

Results flagged for a closer look

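Of 9 values examined, among them each member with any count, 1 had a single cell standing apart from the rest in log2(TPM + 1). This was Cckar in cell 3, at 0.477 TPM on 3.40 estimated counts, with the gap to the next cell at 0.607 of the range against a critical value of 0.568. Chance picks out about 1 in 20 such groups, and the value rests on a count near the floor. Cck, Tac2 and Cnr1 were not picked out, since a pair of high cells leaves no single cell apart.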

How the results depend on the processing

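Cck, Tac2 and Cnr1 had cells 2 and 7 as their highest pair on TPM, on rescaled values, on count shares without length correction and by the highest transcript. Cell 7 had the highest mean level of the 8 genes under every scale and pseudocount tried. The number of member and cell combinations above threshold lay between 16 and 28 under other scales and thresholds, against 19. It was 14 without cell 7 and 14 without cell 2, which only takes away the 5 combinations of the cell left out. The range of the mean level between cells was 8.97 when the 3 genes above 1 TPM in no cell were left out, against 5.62. By rank within a cell, 4 of 7 members kept their highest cell, with Tac2, Slc17a8 and Cckar led by another cell, and the cause was not tested. Without cell 7, 3 members were highest in the cell where Cck was, and without cell 2 there were 4. The number of genes with r of at least 0.9 to Cck was 37, against 17 on rescaled values, 23 on count shares without length correction, 124 with a mean of at least 1 and 145 with no filter, and 35 to 76 when 1 cell was left out. The levels of Slc17a8 and Cckar, which rest on about 4 counts at most, moved by more than the spread between cells in 4 cases on rescaled values and count shares, and 17 other checks of a member's highest level did not. No paired analysis was possible because there is 1 group. Depth limits what a 0 shows for Cck in cells 1 and 4 and for both receptor genes.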
